A study of Danio rerio with 20 samples.

Results

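The genes described here carry vascular endothelial growth factor (VEGF) signalling in the zebrafish brain, together with a pair of genes of the vessel wall. They are 9 of the 32105 gene identifiers in the deposited count table, chosen by name. Earlier results of these data were known when they and the gene lists used below were chosen. The ligands are VEGFA (ENSDARG00000034700), VEGFA (ENSDARG00000103542) and vegfc (ENSDARG00000069640). The receptors are kdrl (ENSDARG00000105215), kdr (ENSDARG00000017321), flt1 (ENSDARG00000019371) and flt4 (ENSDARG00000104453). The endothelial genes are stab1 (ENSDARG00000076484) and cdh5 (ENSDARG00000075549). The name table used gives both VEGFA identifiers the same human-style symbol without a copy letter, so they are told apart by identifier only.

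Brain RNA of male zebrafish (Danio rerio) of strain AB JxTu was sequenced in 20 libraries, in 4 groups of 5. The groups were fish of 1 year or 3 years that were left unperturbed (called unexercised) or swum in a swim tunnel (called exercised), where water is driven past the fish and it must swim to hold its place. The design compares exercise at each age, age in each exercise state, and whether the exercise difference changes with age. The labels name no transgene or drug, do not give the length of the swim, and do not say whether the 5 libraries of a group came from 5 different fish. The p-values here therefore speak only of the scatter among libraries, which may be technical.

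VEGF ligands are secreted proteins that bind receptor tyrosine kinases on endothelial cells, the cells that line blood and lymph vessels. VEGFA acts through KDR-type receptors to drive sprouting and permeability, while flt1 binds VEGFA tightly and, in its soluble form, holds it away from those receptors. vegfc acts mainly through flt4, a pathway best known for the growth of veins and lymphatics. In the brain, VEGFA is made largely by cells of the neural tissue, and the vessels carry the receptors.

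Libraries held 23.4 to 34.6 M counts. Genes of neurons, radial glia and oligodendrocytes were abundant in the libraries: 19 of 21, 9 of 13 and 10 of 10 listed genes exceeded 10 normalised counts (CPM, counts scaled to a common library size) in every library. All 38 genes of an endothelial list and 25 of 26 genes of a macrophage and microglia list had at least 1 count in every library, a lower bar. Over 10 CPM in every library were 18 of the 38 and 8 of the 26. Levels of genes of other tissues were uneven among libraries. A total of 8 libraries stood more than 1.5 log2 units above the median on the mean log2 level of genes of skeletal muscle, retina and pineal, epidermis or pituitary, namely 1-year unexercised replicate 1, 1-year exercised replicate 3, 3-year unexercised replicates 3, 4 and 5, and 3-year exercised replicates 1, 2 and 4. The libraries over the limit for retina and pineal genes were 1-year exercised replicate 3 and 3-year exercised replicates 2 and 4, all of them exercised. They are called the retina libraries, or high in retina genes, below. Retina and pineal genes share a list here, so these tissues were not told apart, and the pineal is part of the brain. In addition, the library labelled 1-year unexercised replicate 5 had hif1al at 202 and PFKFB4 at 174 CPM, against 53.7 to 61.2 and 42.1 to 48.9 in the other unexercised 1-year libraries. Its values lay inside the ranges of the 1-year exercised libraries, 143 to 210 and 117 to 177, and so went against its label for these genes. Whether the label is right was not tested. For exercise averaged over ages, 192 of all genes passed with this library and 425 without it, and the call of stab1 held without it (0.68, adjusted p = 0.0173). For the 9 genes, calls that changed without these libraries are given with the result.

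Levels were first ordered among genes, in CPM per kilobase of gene length, over all 20 libraries. The highest was kdrl at 18.6 ± 3.88 (SD, n = 20), followed by VEGFA (ENSDARG00000034700) at 15.9 ± 1.92 and flt1 at 12.4 ± 1.67. VEGFA (ENSDARG00000103542) stood at 6.18 ± 0.937, cdh5 at 4.49 ± 0.604 and kdr at 4.41 ± 1.18. The lowest were vegfc at 2.11 ± 0.319, flt4 at 1.43 ± 0.391 and stab1 at 1.37 ± 0.487. Most steps in this order held within libraries: flt1 exceeded VEGFA (ENSDARG00000103542), the latter exceeded cdh5, and kdr exceeded vegfc in 20 of 20 libraries. The steps from VEGFA (ENSDARG00000034700) to flt1 and from vegfc to flt4 held in 19 libraries each, and that from kdrl to VEGFA (ENSDARG00000034700) in 15. The neighbours cdh5 and kdr, in order in 13 of 20 libraries, and flt4 and stab1, in order in 12 of 20, did not differ beyond their spread. Variation among libraries was widest for stab1, with a CV of 35.5%, flt4 (27.4%) and kdr (26.8%), and narrowest for VEGFA (ENSDARG00000034700) at 12.1%, cdh5 at 13.4% and flt1 at 13.5%.

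**Figure D1:**
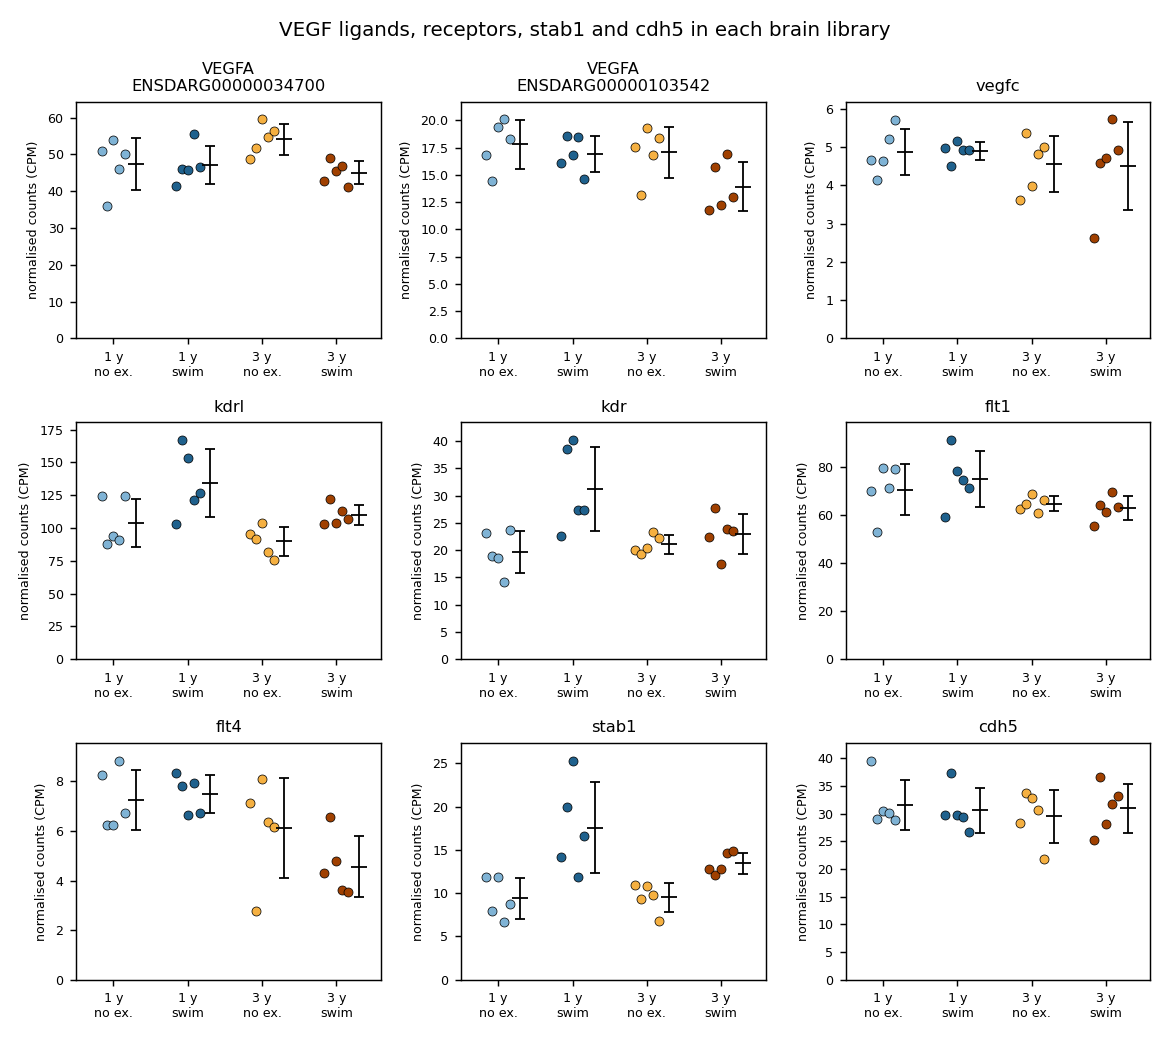
Normalised counts (CPM, linear axis from 0) of the 9 genes in each of the 20 libraries, by age (1 y, 3 y) and exercise (no ex., swim); each point is a library, the horizontal mark is the group mean and the bar is its SD (n = 5). The stab1 points of 3-year exercised fish, 12.1 to 14.9, all lie above those of 3-year unexercised fish, 6.84 to 10.9. The flt4 points of 3-year exercised fish, 3.54 to 6.56, all lie below those of 1-year exercised fish, 6.64 to 8.34. How many of all genes are separated in this way was not counted.

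stab1 was the gene of the set that passed the test for exercise, and only with both ages averaged. It encodes stabilin-1, a scavenger receptor of venous and sinusoid-like endothelium that in mammals is also made by macrophages. In replicates 1 to 5, stab1 stood at 11.9, 8, 11.9, 6.67 and 8.73 CPM in 1-year unexercised fish and at 14.2, 19.9, 25.3, 11.9 and 16.6 CPM in 1-year exercised fish. At 3 years it stood at 10.9, 9.28, 10.8, 9.81 and 6.84 CPM without exercise and at 12.8, 12.1, 12.8, 14.6 and 14.9 CPM with it. At 3 years the groups did not overlap, and at 1 year 4 of 5 exercised libraries exceeded the highest unexercised one. How many of all genes had groups that did not overlap was not counted here.

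Averaged over both ages, stab1 rose 1.62-fold with exercise, a log2 fold change of 0.70 ± 0.14 (SE, 95% interval 0.41 to 0.98; adjusted p = 0.0194). The background for this comparison was 192 of 21148 genes tested, or 0.908%. Within each age the test was not passed: the log2 fold change was 0.90 ± 0.19 at 1 year (adjusted p = 0.0982) and 0.50 ± 0.19 at 3 years (adjusted p = 0.486). The exercise effects at the 2 ages were not shown to differ, with a difference of -0.40 ± 0.27 (95% interval -0.97 to 0.17; adjusted p = 0.982). The averaged call held in each of the 20 fits that left out a library, with log2 fold changes of 0.61 to 0.75 over all alternatives. The call was lost without the 8 libraries with other tissue (0.65, adjusted p = 0.379). As an alternative chosen after the data were seen, the 3 libraries high in retina genes were left out, and it was again lost (0.62, adjusted p = 0.132). Of all genes, 3 of 21464 and 12 of 21534 passed in these settings, which hold fewer libraries. The loss therefore cannot show whether the stab1 difference depended on those libraries. Over all alternatives for stab1 the adjusted p ran from 0.000244, in DESeq2, to 0.379.

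The highest stab1 value lay in 1-year exercised replicate 3, whose retina and pineal score, the mean log2 CPM of 25 listed genes, was 2.20. The other libraries over the limit, 3-year exercised replicates 2 and 4, had scores of 1.91 and 2.08. Their stab1 values were 12.1 and 14.6 CPM, in a group range of 12.1 to 14.9. That score ran from -1.58 to -1.29 in 1-year unexercised, from -1.68 to 2.20 in 1-year exercised, from -1.68 to -1.05 in 3-year unexercised and from -1.88 to 2.08 in 3-year exercised libraries. Of the 25 genes, 15 had a count in every library. Left without these libraries, the difference kept most of its size and lost its call, as given above. Of 25 tested macrophage and microglia genes, 0 passed any exercise comparison in edgeR. Their median log2 fold change with exercise was -0.58 at 1 year, where 1 of 25 was positive, 0.07 at 3 years, where 14 were, and -0.22 averaged, where 1 was. Their part in the stab1 difference was not tested. The second stabilin gene, stab2, did not pass, with an averaged log2 fold change of 0.42 ± 0.12 (adjusted p = 0.11). In bulk tissue, more cells of a type and more RNA per cell cannot be told apart.

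**Figure D2:**
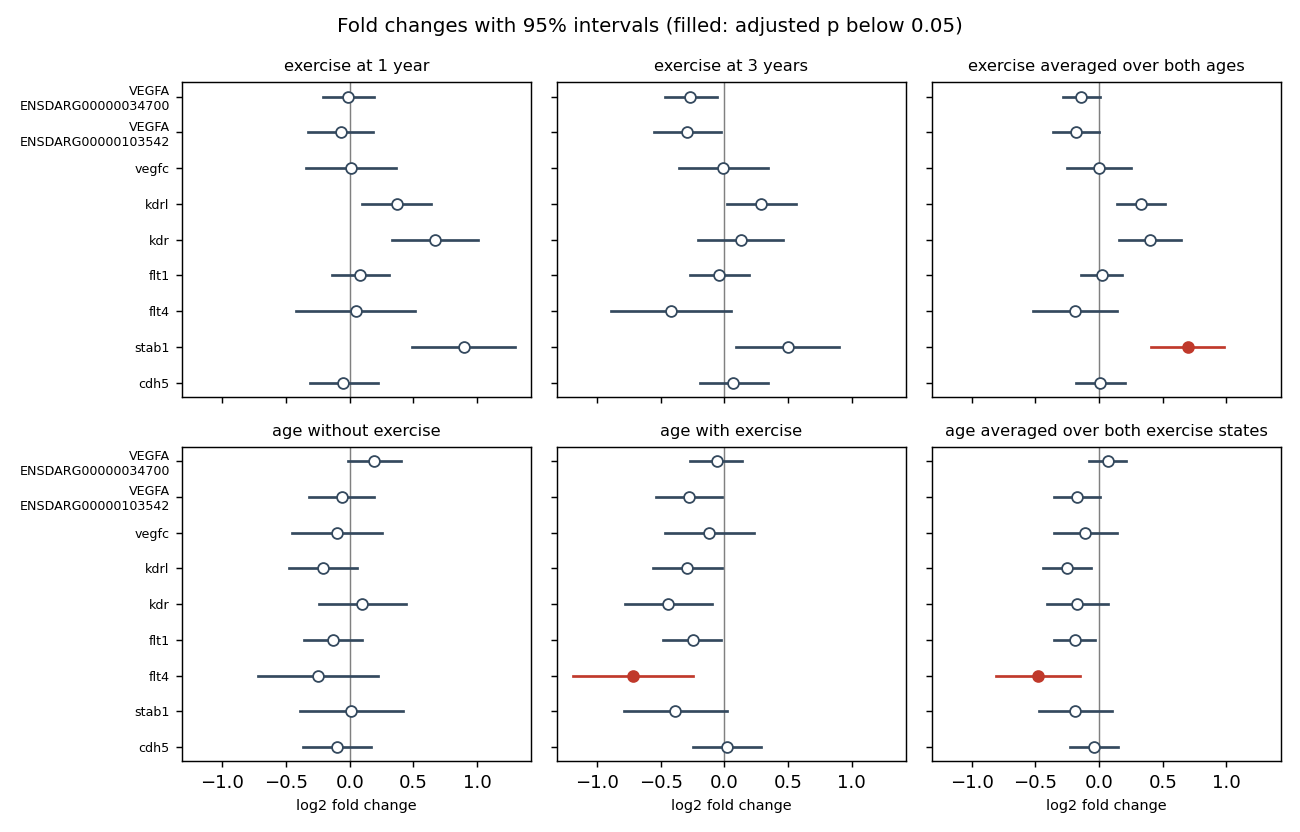
Log2 fold changes (x axis) with 95% intervals of the 9 genes in 6 comparisons from the edgeR fit over all 20 libraries; filled red points have an adjusted p below 0.05. The filled points are stab1 for exercise averaged over ages (0.70) and flt4 for age in exercised fish (-0.72) and averaged over exercise states (-0.48).

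Neither KDR-type receptor passed the test for exercise in edgeR. kdrl, a VEGFA receptor of zebrafish endothelium, stood in 1-year unexercised replicates 1 to 5 at 124, 88.1, 93.7, 90.5 and 124 CPM and in 1-year exercised replicates at 103, 167, 153, 121 and 127 CPM. At 3 years it stood at 95.7, 91.7, 104, 82 and 75.8 CPM without exercise and at 103, 122, 104, 113 and 107 CPM with it. At each age 3 of 5 exercised libraries exceeded every unexercised one, and the ranges overlapped. How many of all genes are separated to such a degree was not counted, for kdrl or for kdr and the VEGFA copies below. The averaged log2 fold change of kdrl was 0.33 ± 0.09 (95% interval 0.14 to 0.52; adjusted p = 0.0928). It passed in DESeq2 (0.33, adjusted p = 0.0281) and without 1-year unexercised replicate 5 (0.37, adjusted p = 0.0466), and its adjusted p ran from 0.0281 to 0.541 over all alternatives.

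kdr, the other KDR-type receptor, stood at 23.1, 18.9, 18.6, 14.2 and 23.6 CPM in 1-year unexercised and at 22.6, 38.6, 40.2, 27.4 and 27.3 CPM in 1-year exercised replicates 1 to 5. At 3 years it stood at 20.1, 19.2, 20.3, 23.3 and 22.3 CPM without exercise and at 22.4, 27.7, 17.4, 23.9 and 23.5 CPM with it. At 1 year 4 of 5 exercised libraries lay above the unexercised range; at 3 years 3 lay above it and 1 below. The log2 fold change was 0.67 ± 0.16 at 1 year (adjusted p = 0.125) and 0.13 ± 0.16 at 3 years (adjusted p = 0.932). The difference between ages, -0.54 ± 0.23, had an unadjusted p of 0.0295 and an adjusted p of 0.982. Averaged over ages the log2 fold change of kdr was 0.40 ± 0.11 (adjusted p = 0.115). DESeq2 called kdr at 1 year (adjusted p = 0.0153) and averaged (adjusted p = 0.0395), while over all alternatives the adjusted p ran from 0.0153 to 0.647 at 1 year and from 0.0395 to 0.555 averaged. The highest kdr value, like that of stab1, was in 1-year exercised replicate 3.

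Neither VEGFA identifier passed the test for exercise at either age. VEGFA (ENSDARG00000034700) stood at 48.6, 51.7, 59.5, 54.6 and 56.3 CPM in 3-year unexercised and at 42.7, 48.9, 45.6, 46.9 and 41.2 CPM in 3-year exercised replicates 1 to 5. In this pair of groups 4 of 5 exercised libraries lay below the lowest unexercised one. Its log2 fold change was -0.27 ± 0.10 at 3 years (adjusted p = 0.448) and -0.01 ± 0.10 at 1 year (adjusted p = 0.984), where the ranges were 35.9 to 53.9 and 41.5 to 55.5 CPM. VEGFA (ENSDARG00000103542) stood at 17.6, 13.2, 19.3, 16.8 and 18.4 CPM in 3-year unexercised and at 11.8, 15.7, 12.2, 16.9 and 13 CPM in 3-year exercised fish. Here 3 of 5 exercised libraries lay below every unexercised one. The log2 fold change was -0.29 ± 0.12 at 3 years (adjusted p = 0.535) and -0.07 ± 0.12 at 1 year (adjusted p = 0.851).

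vegfc, flt1 and cdh5 had averaged exercise differences near 0, and none passed at either age. With both ages averaged, the log2 fold change was 0.00 ± 0.12 for vegfc (95% interval -0.25 to 0.25), the ligand of flt4. It was 0.02 ± 0.08 for flt1 (-0.14 to 0.18). It was 0.01 ± 0.09 for cdh5 (-0.18 to 0.20), the VE-cadherin of junctions between endothelial cells. In CPM, group means ranged from 4.51 to 4.89 for vegfc, from 62.7 to 74.7 for flt1 and from 29.5 to 31.6 for cdh5. For flt4 the log2 fold change with exercise was 0.05 ± 0.22 at 1 year (adjusted p = 0.954), -0.42 ± 0.22 at 3 years (adjusted p = 0.69) and -0.19 ± 0.16 averaged (95% interval -0.52 to 0.14).

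Over the set, 0 of 9 genes passed the test for exercise at 1 year, where 4 of 21148 genes (0.0189%) passed, and 3 had an unadjusted p under 0.05, as did 11.5% of all genes. At 3 years 0 of 9 passed, where 6 genes (0.0284%) did, and 4 had an unadjusted p under 0.05, as did 8.07% of all genes. For the difference between the ages 0 of 9 passed, against 1 gene (0.00473%) of all, and 1 had an unadjusted p under 0.05, as did 4.75% of all genes. With so few calls over all genes, these counts say little about the set. Averaged over ages 1 of 9 passed, where 192 genes (0.908%) did, and 4 had an unadjusted p under 0.05, as did 13.8% of all genes. The median log2 fold change of the 9 genes was 0.05 at 1 year, -0.01 at 3 years and 0.01 averaged, against -0.02, 0.00 and -0.02 over all genes. DESeq2 called 2 of the 9 at 1 year (kdr and stab1), 0 at 3 years, 0 for the difference and 3 averaged (kdrl, kdr and stab1). Of the 27460 genes it tested, DESeq2 called 274 at 1 year, 115 at 3 years, 13 for the difference and 687 averaged.

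As a description added after the values were seen, and with no test, length-scaled levels were set against each other within libraries. The ratio of stab1 to cdh5 was 0.224 ± 0.0459 in 1-year unexercised, 0.433 ± 0.129 in 1-year exercised, 0.243 ± 0.0298 in 3-year unexercised and 0.330 ± 0.0486 in 3-year exercised fish (SD, n = 5). At 1 year the ranges of this ratio, 0.166 to 0.293 and 0.304 to 0.639, did not overlap, while at 3 years 0.206 to 0.288 and 0.248 to 0.379 did. The value of 0.639 was that of 1-year exercised replicate 3, a library high in retina genes. The other libraries high in them, 3-year exercised replicates 2 and 4, stood at 0.248 and 0.345. The ratio of kdrl to flt1 was 1.4 ± 0.239 and 1.68 ± 0.112 at 1 year and 1.3 ± 0.147 and 1.64 ± 0.108 at 3 years, without and with exercise. Its ranges at 3 years, 1.07 to 1.43 and 1.53 to 1.77, did not overlap, while at 1 year 1.1 to 1.66 and 1.53 to 1.84 did. The share of all gene pairs whose ratios are separated in this way was not counted. kdr to cdh5 went from 0.796 ± 0.160 to 1.29 ± 0.275 at 1 year and from 0.933 ± 0.222 to 0.943 ± 0.124 at 3 years. flt1 to cdh5 lay between 2.53 and 3.04 in all 4 group means. The ratio of the VEGFA copies, ENSDARG00000034700 to ENSDARG00000103542, was 2.33 ± 0.250 and 2.44 ± 0.259 at 1 year and 2.82 ± 0.372 and 2.87 ± 0.339 at 3 years.

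**Figure D3:**
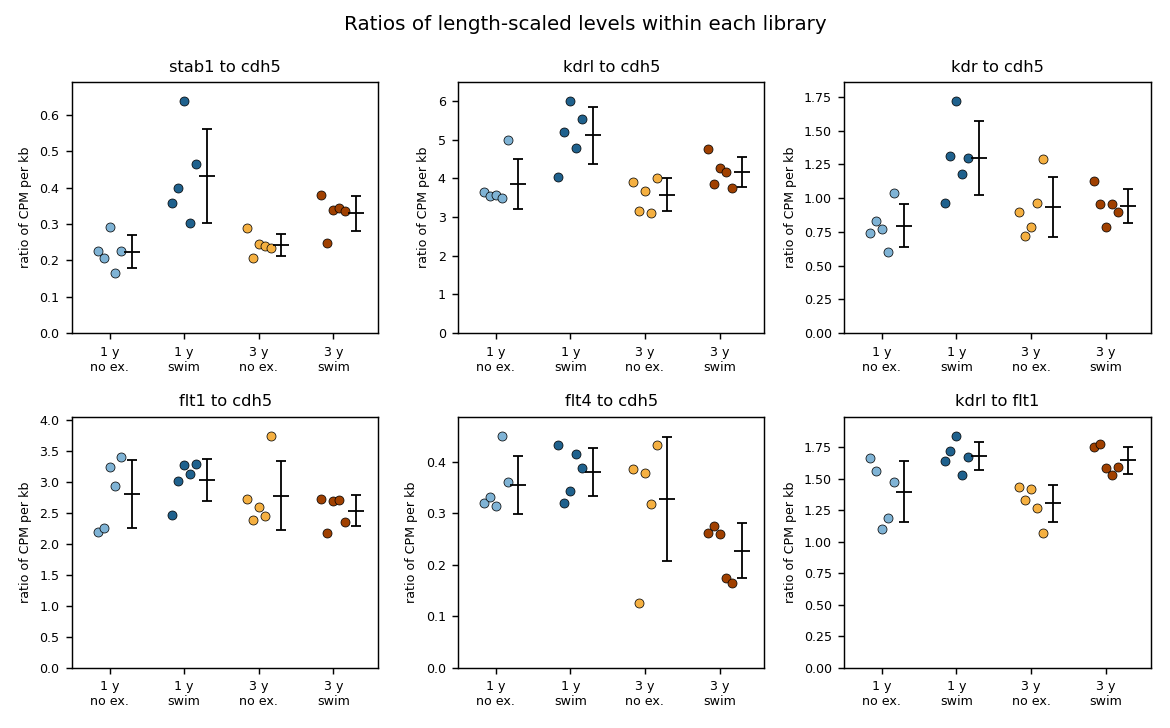
Ratios of CPM per kilobase between pairs of genes in each library (y axis, linear from 0), by age and exercise; points are libraries, marks and bars the mean and SD (n = 5). In 3-year fish the kdrl to flt1 points with exercise, 1.53 to 1.77, lie above those without, 1.07 to 1.43, while flt1 to cdh5 covers similar ranges in the groups. The share of all gene pairs separated in this way was not counted.

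With age, flt4 was the gene of the set that passed the test, and it was lower at 3 years. flt4 encodes the receptor for vegfc. In replicates 1 to 5, flt4 stood at 8.24, 6.23, 6.22, 8.83 and 6.74 CPM in 1-year unexercised and at 8.34, 7.81, 6.64, 7.95 and 6.74 CPM in 1-year exercised fish. At 3 years it stood at 7.13, 2.77, 8.1, 6.36 and 6.15 CPM without exercise and at 4.31, 6.56, 4.77, 3.62 and 3.54 CPM with it. The exercised groups did not overlap, while among unexercised fish 2 of 5 older libraries lay below the younger range. For this comparison, too, the share of all genes without overlap was not counted. The counts behind these levels were 87 to 254 per library.

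In exercised fish flt4 fell by 0.72 on the log2 scale with age, with an SE of 0.22 (95% interval -1.19 to -0.25; adjusted p = 0.0475), where 10.6% of all genes tested passed. Averaged over exercise states its log2 fold change was -0.48 ± 0.16 (adjusted p = 0.0426), where 16.9% of all genes passed. In unexercised fish it was -0.25 ± 0.22 (adjusted p = 0.66), where 0.586% of genes passed. The age effects in exercised and unexercised fish differed by -0.47 ± 0.32 (adjusted p = 0.982), so the flt4 difference was not shown to depend on exercise.

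Both flt4 calls lay close to the threshold. Leaving out a library in turn, the call in exercised fish held in 4 of 20 fits, where the library left out was replicate 1 of the 1-year unexercised, replicate 2 or 3 of the 3-year unexercised or replicate 2 of the 3-year exercised fish. The averaged call held in 6 of 20, where it was replicate 2 or 3 of the 1-year unexercised, replicate 1, 2 or 3 of the 3-year unexercised or replicate 2 of the 3-year exercised fish. Over these fits the adjusted p ran from 0.0103 to 0.112 and from 0.0181 to 0.0779. Without the libraries with other tissue the log2 fold changes were -0.90 (adjusted p = 0.238) and -0.70 (adjusted p = 0.106). There 9 and 1223 of 21464 genes passed. Without a filter on low counts the adjusted p was 0.0588 and 0.0539. Over all alternatives the adjusted p ran from 0.0103 to 0.238 in exercised fish and from 0.0163 to 0.106 averaged.

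The other genes had small differences with age that did not pass. In exercised fish the log2 fold change was -0.44 ± 0.16 for kdr (adjusted p = 0.0858), -0.39 ± 0.19 for stab1 (0.209), -0.29 ± 0.13 for kdrl (0.158), -0.28 ± 0.12 for VEGFA (ENSDARG00000103542) (0.151) and -0.25 ± 0.11 for flt1 (0.142). Without 1-year exercised replicate 1, kdr passed (-0.54, adjusted p = 0.046, with a range of 0.046 to 0.346 over its alternatives). DESeq2 also called kdr in exercised fish, just under the threshold (-0.46), as 1 of 3405 genes. In edgeR 1 of 9 genes passed in exercised fish and 1 averaged over exercise states, against 10.6% and 16.9% of all genes. An unadjusted p under 0.05 was found for 5 and 3 of them, against 26.4% and 31.1% of all genes. In unexercised fish 0 of 9 genes passed in edgeR or DESeq2, where 0.586% of all genes passed in edgeR. There 0 had an unadjusted p under 0.05, against 14.1% of all genes. The largest difference there, after that of flt4, was -0.21 ± 0.13 for kdrl (adjusted p = 0.482), and VEGFA (ENSDARG00000034700) was at 0.19 ± 0.10 (adjusted p = 0.379). Averaged over exercise states, kdrl stood at -0.25 ± 0.09 (adjusted p = 0.0663) and flt1 at -0.19 ± 0.08 (adjusted p = 0.0951). Without 1-year unexercised replicate 2 or 1-year exercised replicate 1 both passed, with adjusted p of 0.049 and 0.0303 for kdrl and 0.0225 and 0.0377 for flt1, and DESeq2 called kdrl (adjusted p = 0.0373). Over all alternatives the adjusted p ran from 0.0303 to 0.434 for kdrl and from 0.0225 to 0.383 for flt1. cdh5 and vegfc were at -0.04 ± 0.09 and -0.11 ± 0.12. A single gene of 9, VEGFA (ENSDARG00000034700), had a positive averaged difference, and the set's median was -0.17, against 0.00 over all genes. The comparison with age in exercised fish shares its 3-year exercised libraries with that of exercise at 3 years. It shares its 1-year exercised libraries with that of exercise at 1 year. These comparisons are therefore not independent.

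The rest of the pathway was read from gene lists. Of 27 VEGF pathway genes (further ligands, co-receptors and signalling proteins), 0 passed any exercise comparison, and averaged over ages their median log2 fold change was -0.04. The 9 angiopoietin and TIE genes, 38 endothelial, 26 blood-brain barrier, 13 lymphatic and 21 tested mural cell genes likewise gave 0 calls in edgeR. Averaged over ages, an unadjusted p under 0.05 was found for 4, 2, 5, 6, 2 and 2 genes of these 6 lists, against 13.8% of all genes, and DESeq2 called 1, 0, 1, 2, 2 and 0, the VEGF pathway gene lower and the rest higher. The lists share genes, such as sox18 in the endothelial, barrier and lymphatic lists, so the same gene can be counted in several lists. Of the 38 endothelial genes, 11 had a positive averaged exercise difference, with a median of -0.07 against -0.02 over all genes. The smallest adjusted p in the averaged comparison was 0.0601 in the VEGF pathway list and 0.0643 in the endothelial list. Hypoxia-response genes, many of which respond to the same oxygen-sensing factors that control VEGFA, included 3 of 32 tested that passed, all higher: hif1al at 1.07 ± 0.23 (adjusted p = 0.0267), PFKFB4 at 1.13 ± 0.25 (0.036) and PDK2 (ENSDARG00000020876) at 0.77 ± 0.18 (0.0479). PDK2 (ENSDARG00000059054) was not among them. Over all genes 0.908% passed in this comparison. Leaving out a library in turn, the calls of hif1al, PFKFB4 and PDK2 (ENSDARG00000020876) held in 11, 8 and 4 of 20 fits. Without the retina libraries, or without all libraries with other tissue, 0 of the 32 passed. Of all genes tested, 12 of 21534 and 3 of 21464 passed in these settings, so these counts say little about the list.

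With age averaged over exercise states, 5 of the 27 VEGF pathway genes passed, 3 higher and 2 lower, with a median of 0.08 against 0.00 over all genes. The share, given 16.9% of all genes, is close to the background. Of the 2 further ligands among them, PGF, placental growth factor and a ligand of flt1, fell by 0.74 on the log2 scale (SE 0.16; adjusted p = 0.00403). Its levels were low, with group means of 1.28 and 1.15 CPM at 1 year and 0.632 and 0.827 CPM at 3 years. vegfba, a VEGFB-type ligand, rose by 0.28 ± 0.06 (adjusted p = 0.00279), from means of 29.5 and 32.6 CPM to 35.7 and 39.9 CPM. NOTCH1 (ENSDARG00000103554) rose by 0.45 ± 0.06 (adjusted p = 0.000381). In vessels, NOTCH1 restrains sprouting downstream of VEGF. The list sought notch1b, and both NOTCH1 identifiers matched without the copy letter. The other, NOTCH1 (ENSDARG00000052094), did not pass. shc2, an adaptor of receptor signalling, rose by 0.87 ± 0.18 (adjusted p = 0.0034). Levels of shc2 were low too, with group means of 0.817 and 0.831 CPM at 1 year and 1.25 and 1.81 CPM at 3 years. SPRED1, an inhibitor of Ras signalling, fell by 0.20 on the log2 scale (SE 0.05; adjusted p = 0.0182). In unexercised fish PGF was the pathway gene that passed, at -1.01 ± 0.22 (adjusted p = 0.0447). That PGF call held in 4 of 20 fits that left out a library. It was lost without the libraries with other tissue (-0.99, adjusted p = 0.254) or without the retina libraries (-1.01, adjusted p = 0.0835). There 17 of 21464 and 84 of 21534 genes passed. The averaged calls of PGF and SPRED1 held in each fit that left out a library. They were lost without the libraries with other tissue (-0.76, adjusted p = 0.0969, and -0.17, adjusted p = 0.0963), where 1223 of 21464 genes passed.

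Among the 38 endothelial genes, 3 rose and 2 fell with age, a smaller share than the 16.9% of all genes. ramp2, a partner of the adrenomedullin receptor, fell by 0.93 on the log2 scale (SE 0.16; adjusted p = 0.00115), from means of 13.5 and 16.8 CPM to 7.15 and 8.78 CPM. ephb4a, a receptor of venous identity, fell by 0.26 (SE 0.08; adjusted p = 0.035). hhex, a homeobox factor of early vessels and liver, rose by 0.87 ± 0.21 (adjusted p = 0.00904). Its levels were low, with group means of 1.03 and 0.853 CPM at 1 year and 1.77 and 1.64 CPM at 3 years. The junction protein ESAM rose by 0.39 ± 0.10 (adjusted p = 0.0133) and the vessel surface lectin clec14a by 0.32 ± 0.11 (adjusted p = 0.0496). Leaving out a library in turn, the call of ephb4a held in 12 of 20 fits and that of clec14a in 6. The calls of ramp2, hhex and ESAM held in all 20. The endothelial list's median was -0.06, and its score overlapped in all 4 groups, from 3.38 to 4.04 in 1-year unexercised and from 3.59 to 3.79 in 3-year exercised libraries.

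With age averaged over exercise states, 1 of 26 barrier genes rose and 2 fell, and 2 of 13 lymphatic genes rose and 1 fell, against 16.9% of all genes in either direction. Both SLC2A1 copies, glucose transporters of the brain endothelium, were lower, at -0.32 ± 0.09 (SLC2A1 (ENSDARG00000001437), adjusted p = 0.0165) and -0.38 ± 0.13 (SLC2A1 (ENSDARG00000007412), adjusted p = 0.0458), and WNT7A (ENSDARG00000044827), a Wnt ligand that induces barrier properties, was higher at 0.36 ± 0.12 (adjusted p = 0.0467). PROX1, a factor of lymphatic identity that neural cells also make, and LGMN, a lysosomal protease, rose by 0.32 ± 0.10 (adjusted p = 0.0319) and 0.23 ± 0.05 (adjusted p = 0.00449). stab2 fell by 0.39 on the log2 scale (SE 0.12, adjusted p = 0.0342). That call held without the libraries with other tissue (-0.52, adjusted p = 0.0409) and was lost without the retina libraries (-0.41, adjusted p = 0.0528). Leaving out a library in turn, the calls of stab2 and PROX1 held in 11 and 12 of 20 fits. Those of WNT7A (ENSDARG00000044827) and SLC2A1 (ENSDARG00000007412) held in 8 and 6. The calls of SLC2A1 (ENSDARG00000001437) and LGMN held in all 20. WNT7A (ENSDARG00000002483) did not pass with age averaged over exercise states. Of the mural list FOXC1 passed, at 0.38 ± 0.10 (adjusted p = 0.0154), and of the angiopoietin and TIE list 0 of 9 did in edgeR or DESeq2, with 1 at an unadjusted p under 0.05. Beside these, 15 of 25 macrophage and microglia genes rose with age, with a median of 1.01. Several identifiers of that list share the symbol MFAP4 and were counted as separate genes. In the same comparison 9 of 21 neuron genes fell and 0 were positive, with a median of -0.22, 3 of 10 oligodendrocyte genes rose, with a median of 0.15, and 1 of 12 radial glia genes rose, with a median of 0.02. The part of these cell types in the vascular differences was not tested. Without the libraries with other tissue, 1223 of 21464 genes passed with age, against 3584 of 21148 with all libraries. There the calls were 3 higher and 0 lower in the VEGF pathway list, 1 and 1 in the endothelial list and 0 and 0 in the barrier list. They were 0 and 1 in the lymphatic list and 1 and 0 in the mural list, while 15 macrophage and microglia genes were still called higher. Without the retina libraries the barrier and lymphatic lists gave 0 higher and 1 lower, and 1 higher and 0 lower, and the mural list 0. There 2663 of 21534 genes passed.

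**Figure D4:**
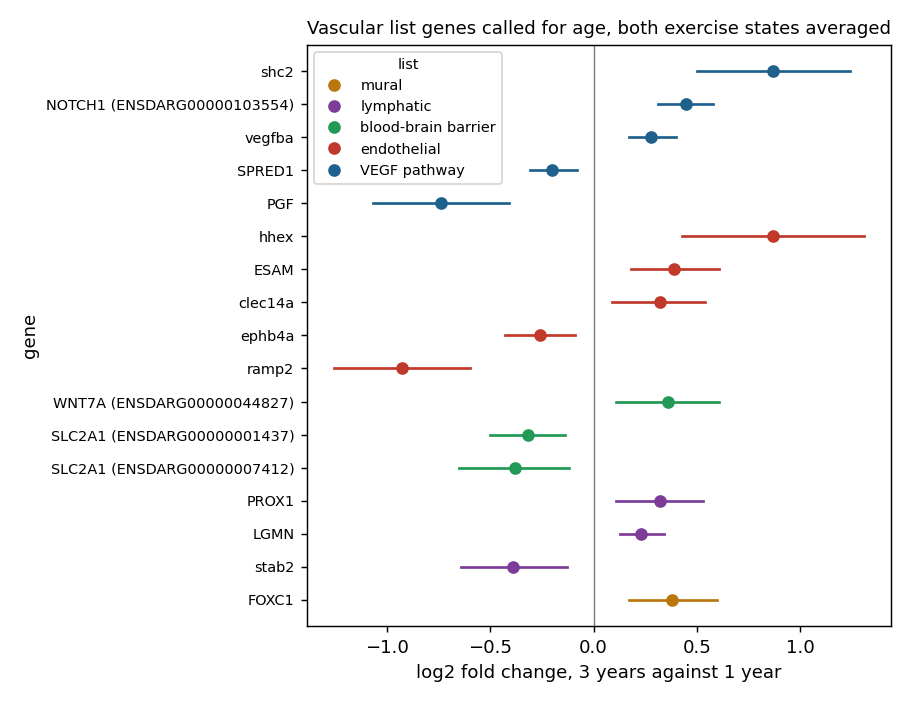
Log2 fold changes (3 years against 1 year, both exercise states averaged, x axis) with 95% intervals of the vascular list genes that passed the edgeR test, coloured by list. ramp2 (-0.93) and PGF (-0.74) lie farthest to the left and shc2 and hhex (both 0.87) farthest to the right. PGF, shc2 and hhex stood at low levels.

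Relations between the 9 genes among libraries of a group were computed for 36 pairs. After group means were removed, 0 of 36 pairs had an adjusted permutation p of Pearson's r under 0.05. The pair with the smallest p was VEGFA (ENSDARG00000103542) and flt1, with r = 0.62 (permutation p = 0.00263, adjusted 0.0629) and rho = 0.71 (permutation p = 0.00127, adjusted 0.0457), and r = 0.60 without the 2 libraries farthest from the median. The 2 farthest libraries were picked by 1 gene of each pair only, here VEGFA (ENSDARG00000103542) and in the next 2 pairs kdrl. kdrl and kdr had r = 0.70 (permutation p = 0.00398, adjusted 0.0629; rho = 0.59, adjusted 0.124), and r = 0.63 without the 2 farthest. kdrl and cdh5 had r = 0.60 (adjusted permutation p = 0.0629; rho = 0.56, adjusted 0.124), which dropped to 0.43. flt4 had no r above 0.24 with any gene but VEGFA (ENSDARG00000103542), at 0.54, and vegfc none above 0.36. The r of 0.54 dropped to 0.26 without the 2 farthest libraries, which were picked by VEGFA (ENSDARG00000103542) and not by flt4. With the 12 libraries without other tissue, again 0 of 36 pairs passed.

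**Figure D5:**
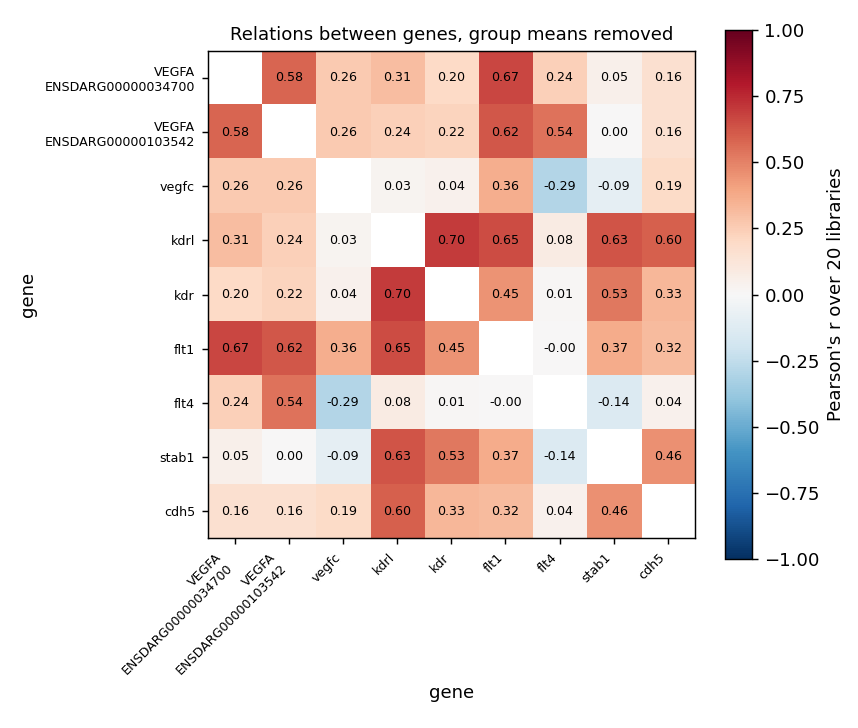
Pearson's r between each pair of the 9 genes (both axes) over 20 libraries, computed on log2 CPM with group means removed; red is positive, blue negative, and the colour bar runs from -1 to 1. The highest value is 0.70, between kdrl and kdr, and the lowest is -0.29, between vegfc and flt4.

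By the same measure, genes of the whole table that varied most like each gene were listed among 13034 genes, as a description over 20 libraries with no test. stab1 was most like SLCO2A1 (r = 0.81), a prostaglandin transporter, followed by ppp1r13l (0.76) and HSPA12B (0.72). flt4 was most like MRC1 (r = 0.80, rho = 0.55), the mannose receptor that in zebrafish marks lymphatic endothelial cells of the brain surface. VKORC1L1 (r = 0.77, rho = 0.63) and BMS1 (r = 0.76, rho = 0.74) followed closely. kdrl was most like pkp2 (r = 0.85), a desmosomal plaque protein, and EPAS1 (ENSDARG00000057671) (r = 0.83), a hypoxia-inducible factor. kdr was most like map4k2 (r = 0.78) and flt1 most like LRATD2 (ENSDARG00000040280) (r = 0.88). cdh5 was most like bnip4 (r = 0.80). VEGFA (ENSDARG00000034700) was most like CLNS1A (r = 0.80) and VEGFA (ENSDARG00000103542) most like RBM22 (r = 0.87). vegfc, under 5 CPM on average, was not compared. MRC1 itself stood at 0.07 ± 0.15 on the log2 scale with exercise (adjusted p = 0.877) and -0.28 ± 0.15 with age (adjusted p = 0.22).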

How the data were processed

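The TruSeq RNA v2 kit was used, per the labels' protocols; it keeps no strand, so reads of overlapping antisense genes are mixed. Listed in the submitters' processing notes are GRCz10 as genome build, featureCounts (1.4.6-p4), STAR (2.4.1d) and bcl2fastq (1.8.4), with no settings. The authors deposited whole-number read counts for 32105 genes, used for all tests, and an RPKM table. The treatment of reads shared by gene copies, such as the VEGFA pair, is not stated there. The gene length implied by the deposited RPKM had a median CV over libraries of 13.8% with each library's own total as divisor and of 0.00217% when the 20 totals were applied in turn down the rows, so RPKM served only to derive lengths. Symbols came from a name table that matched 26269 identifiers.

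Counts were tested with edgeR 4.0.16 (R 4.3.3): filterByExpr (minimum count 10, minimum total 15; 21148 genes kept, all 9 described genes among them), TMM scaling, and a robust quasi-likelihood F-test on 4 group means over 20 libraries, with 7 contrasts and Benjamini-Hochberg adjustment over all genes kept. Every adjusted p is from this test unless another tool is named. A gene passed at an adjusted p below 0.05. Errors of fold changes are standard errors; levels are CPM on TMM library sizes. The fit was tested on simulated data.

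All 9 genes are named. From the lists, genes were eligible to be named if they passed and reached a mean of 1 CPM in a compared group, up to 6 a list and comparison by smallest p. Not all eligible genes are printed. Those of the macrophage and microglia, skeletal muscle and pituitary lists are left out, as are the list calls for age in exercised fish. The choice of stab2, MRC1 and the ratios was made after values were seen. Of genes most alike, the 3 with the highest r and at least 5 CPM were eligible. List genes were matched by symbol, then without the copy letter. The genes and lists were chosen with earlier results of these data known. Correlations used 100000 permutations of libraries within groups. Alternatives were DESeq2 1.42.0, DESeq2 size factors, other filters, the compared groups alone, and leaving out each library, the libraries with other tissue or those with retina. Replicate numbers follow accession order and pair nothing. No genome or sequence table was used here, so no coordinates or sequences are given.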

Additional observations from a re-analysis of the deposited data

Results flagged for a closer look

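In groups of 5 libraries, a library was singled out where its gap to the nearest other library exceeded 0.71 of the group's range; 136 gene and group combinations were looked at, and chance alone singles out about 1 in 20. For cdh5, 1-year unexercised replicate 1 stood at 39.6 CPM against 28.8 to 30.5 in the others, and 1-year exercised replicate 2 at 37.4 CPM against 26.7 to 29.7. The first of these is a library with other tissue, with a skeletal muscle score of 4.65, an epidermis score of 4.34 and an endothelial score of 4.04, each the highest of all 20 libraries. Their part in the cdh5 value was not tested. SPRED1 stood at 184 CPM in 3-year unexercised replicate 1 against 166 to 169. hhex stood at 1.07 CPM in 3-year exercised replicate 2 against 1.69 to 1.88. PROX1 stood at 36.6 CPM in 3-year exercised replicate 1 against 27.5 to 28.7, a library with a pituitary score of 5.91. hif1al and PFKFB4 stood at 202 and 174 CPM in 1-year unexercised replicate 5 against 53.7 to 61.2 and 42.1 to 48.9, and PFKFB4 at 177 CPM in 1-year exercised replicate 3 against 117 to 133.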

How the results depend on the processing

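Over 1674 fold changes of the 9 genes under alternatives, 1625 stayed on the same side of the threshold in the same direction, 37 lost a call, 12 gained one and 0 calls changed sign; 73 fold changes that were not called had the other sign. Group levels on total counts moved by less than the replicate SD in all 36 cases. The number of the 9 genes called changed as follows. DESeq2 called 2 for exercise at 1 year, 3 for exercise averaged, 2 for age in exercised fish (flt4 and kdr) and 2 for age averaged (flt4 and kdrl). Of the 27460 genes it tested, it called 274, 687, 3405 and 4724 in these comparisons, in the same order. Without the libraries with other tissue 0 were called in the last 3 of these comparisons, without the retina libraries 0 for exercise averaged and age in exercised fish, and with no filter on low counts 0 for both age comparisons. Leaving out a library gave 1 to 2 for exercise averaged, 0 to 1 for age in exercised fish and 0 to 3 for age averaged.

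Counts over all genes moved further. For exercise at 1 year (4) DESeq2 called 274, the compared groups alone 8, and both sets without doubted libraries 0; leaving out a library gave 0 (1-year exercised replicate 3) to 169 (1-year unexercised replicate 5). For exercise at 3 years (6) these were 115 in DESeq2, 1 without other tissue, 1 without retina, and 1 (3-year unexercised replicate 3) to 26 (1-year unexercised replicate 5). For their difference (1), DESeq2 called 13, no filter 0, without retina 0, and leave-one-out 0 to 1. For exercise averaged (192), DESeq2 called 687, without other tissue 3, without retina 12, and leave-one-out 89 (1-year unexercised replicate 3) to 425 (1-year unexercised replicate 5). For age without exercise (124), DESeq2 called 549, the compared groups alone 46, without other tissue 17, and leave-one-out 76 (1-year unexercised replicate 4) to 260 (3-year unexercised replicate 1). For age with exercise (2252), DESeq2 called 3405, without other tissue 9, without retina 843, and leave-one-out 899 (3-year exercised replicate 1) to 2643. For age averaged (3584), DESeq2 called 4724, without other tissue 1223, without retina 2663, and leave-one-out 2889 to 4292. The set without other tissue keeps 12 libraries, 4 in each 1-year and 2 in each 3-year group, so fewer samples were tested; other causes were not tested. No paired analysis was possible because the replicate numbers follow accession order and the labels pair no libraries across groups. Depth limits flt4 and vegfc most, at 87 to 254 and 71 to 193 counts per library.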

Other observations

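Of 32 hypoxia-response genes tested, 2 rose and 6 fell with age averaged over exercise states, where 16.9% of all genes passed. Without the libraries with other tissue, where 1223 of 21464 genes passed, 0 rose and 1 fell. The latter was IGFBP1, at -0.86 ± 0.25 (adjusted p = 0.0234) with all libraries and -1.38 (adjusted p = 0.0232) without those. The 2 that rose were NDRG1 (ENSDARG00000032849) at 0.66 ± 0.14 (adjusted p = 0.00465) and NDRG1 (ENSDARG00000010420) at 0.96 ± 0.28 (adjusted p = 0.0241). Among those that fell, both EPAS1 copies, hypoxia-inducible factors that endothelial cells make in mammals, were lower: EPAS1 (ENSDARG00000008697) at -0.57 ± 0.14 (log2, SE; adjusted p = 0.00925) and EPAS1 (ENSDARG00000057671) at -0.36 ± 0.10 (adjusted p = 0.0205), from edgeR's quasi-likelihood test. Without the libraries with other tissue both calls were lost (-0.58, adjusted p = 0.148, and -0.27, adjusted p = 0.234), and without the retina libraries both held (-0.63, adjusted p = 0.0147, and -0.40, adjusted p = 0.04). With exercise averaged over ages they stood at 0.54 ± 0.14 (adjusted p = 0.0653) and 0.28 ± 0.10 (adjusted p = 0.222), which did not pass.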
